A study of Homo sapiens with 6 samples.

Results

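The genes described here encode the core of the TGFβ pathway and were chosen by name. They are the ligands TGFB1, TGFB2 and TGFB3, the receptors TGFBR1, TGFBR2 and TGFBR3, and the signaling SMADs SMAD2, SMAD3, SMAD4 and SMAD1. They make up 10 of the 21293 genes in the expression table, and all 10 were among the 14395 genes that were tested. Their mRNA was measured by RNA-seq of polyA RNA from H2087-LCC cells, a latency competent (LCC) population selected from a human lung adenocarcinoma line and labelled a dormant metastatic derivative. There were 3 groups of 2 libraries. Cells were given SB505124 (SB), a small molecule inhibitor of the kinase in TGFBR1, over 3 days, or TGFβ over 3 days or 7 days. What SB did to other type I receptors of the family was not measured. Differences from SB are therefore not tied to TGFBR1 alone. Per the study, the TGFβ added was TGFβ1 unless another form is named. None of these groups was left without a drug or ligand, so the SB group, in which signaling from ligand made by the cells is also blocked, is the reference. SB cells at 7 days were not analysed here. In any comparison of the 7-day group, with SB or with 3 days of TGFβ, TGFβ exposure and time in culture cannot be told apart.

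TGFβ ligands are secreted in a latent form, wrapped in their own propeptide and tied to some of the LTBP proteins of the matrix. They must be released before they can bind. Released ligand is held by the type II receptor TGFBR2, which phosphorylates the type I receptor TGFBR1, and TGFBR1 in turn phosphorylates SMAD2 and SMAD3. These join the common partner SMAD4 and act on genes in the nucleus, while SMAD1 belongs to the branch used mainly by BMPs. In epithelial cells the pathway is best known for growth arrest and for epithelial-mesenchymal transition, and it induces its own inhibitors.

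Per the study, both libraries of a group are technical replicates, so the SDs and p-values below cover the spread between these libraries and not between cultures. The normalized counts of a library summed to between 34306283 and 36340734, and the steps among low values gave an estimated 32000000 to 40000000 assigned reads a library. EPCAM, KRT8, KRT18 and KRT19 were detected at 2988 normalized counts or more in every library, and the 5 epithelial markers summed to between 77047 and 106224. EPCAM was nonetheless lower than SB at both times (log2 fold change -0.61 and then -1.62), as was KRT18 (-0.29 and then -0.56), while KRT8 and KRT19 were not called. CDH1, which encodes E-cadherin, was at 371 and 635 in the SB libraries, 28 and 24 at 3 days of TGFβ, and 10 and 9 at 7 days. The sum of the 4 lung lineage markers was 5539 and 14073 with SB and between 1348 and 1930 with TGFβ, and the gap inside the SB group lay mostly in SFTPB, at 1104 and 8273. Of the 5 hematopoietic markers, all but CD68 (4368 to 5113) were under 10 in every library. Of the 4 fibroblast markers 3 were under 10 throughout, LUM was at 0, and the 4 summed to between 8 and 21. The sum of the 4 endothelial markers was between 160 and 294 with SB and between 93 and 132 with TGFβ, with VWF and CDH5 at 20 or less. The part of these marker differences in the results below was not tested. In bulk RNA, fewer cells that use a gene and less RNA in each cell cannot be told apart.

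Differences are given as log2 fold changes of the normalized count plus 1, with the standard error (SE) and the adjusted p of limma's moderated test, adjusted by Benjamini-Hochberg over all genes tested. A gene was called at an adjusted p below 0.05. The comparisons of 3 and 7 days with SB share the SB libraries and are given side by side. An exact permutation test of 2 libraries against 2 cannot give a p below 0.333, so none was used on single genes.

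After 3 days of TGFβ, 6 of the 10 genes differed from SB. TGFB1, TGFB3, TGFBR1 and TGFBR2 were higher, and TGFB2 and SMAD3 were lower. Over all genes tested, 29.0% were called in this comparison, 14.9% higher and 14.0% lower. After 7 days, 8 of the 10 differed from SB, with SMAD2 and SMAD1 added to the genes that were higher. Here 54.5% of all genes were called, 27.7% higher and 26.9% lower, a majority of the genes tested. Between 7 and 3 days, 4 of the 10 differed against a background of 33.2% (17.0% higher, 16.2% lower). TGFB1 and TGFBR1 were higher at 7 days than at 3 days, and TGFB2 and SMAD3 were lower. TGFBR3 and SMAD4 were called in none of the 3 comparisons. The median log2 fold change of the 10 genes was 0.17 at 3 days and 0.40 at 7 days against SB, beside medians of -0.02 and -0.0008 over all genes tested.

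**Figure D1:**
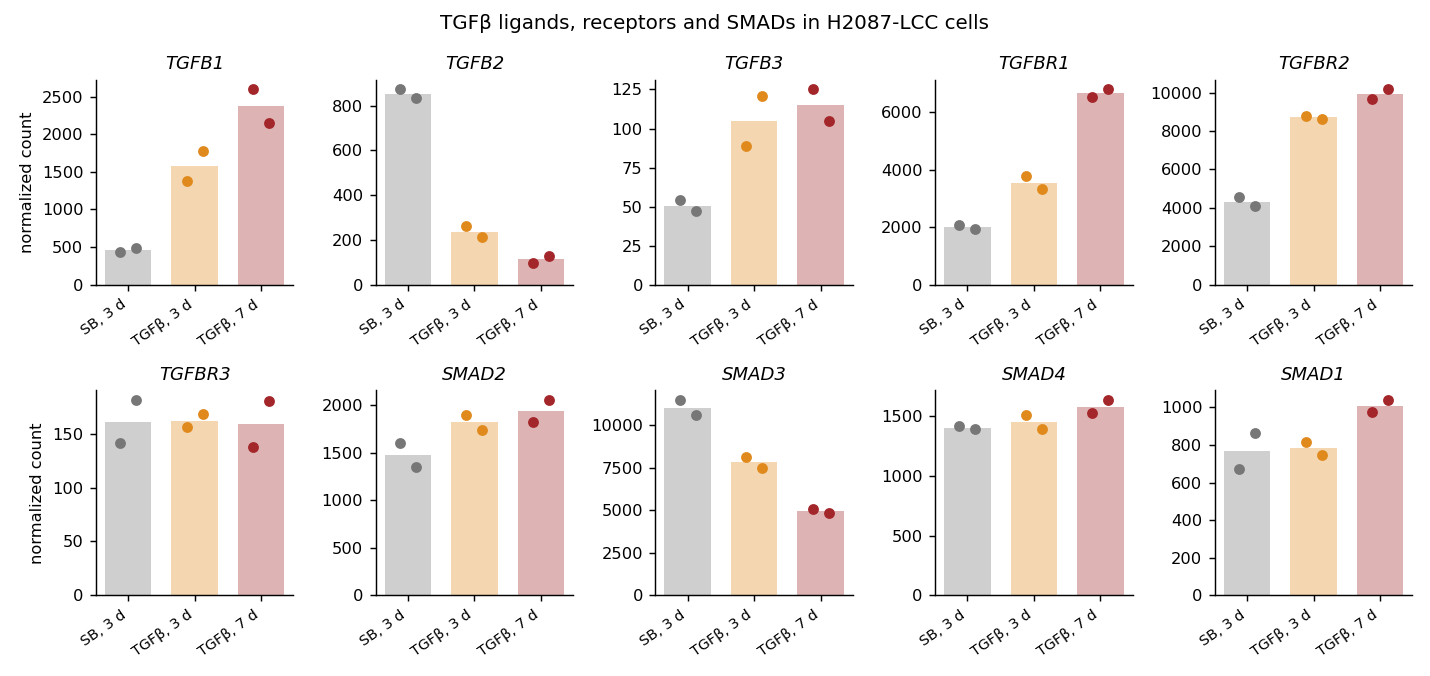
Normalized count of each of the 10 genes on the vertical axis (linear, from 0, with its own scale in each panel) in the 3 groups; points are libraries and bars are the mean of the 2 libraries. TGFB1 and TGFBR1 climb from SB to 3 days to 7 days of TGFβ, TGFB2 and SMAD3 descend, and the points of TGFBR3 overlap in all 3 groups.

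The sequences just upstream of 3 of these genes are shown because each had 1 start in the RefSeq windows used and their courses differed. TGFB1 rose, TGFB2 fell, and TGFBR3 did not pass the test. SMAD4 was the other member with a single RefSeq start. These starts were not compared with those of the GENCODE models, which can lie elsewhere, so a window may fall inside a longer model. The 250 bases before the start, on the gene's own strand, were read from RefSeq on GRCh38.p14, at chr19:41353923-41354172 (minus strand) for TGFB1, chr1:218345086-218345335 (plus strand) for TGFB2 and chr1:91886152-91886401 (minus strand) for TGFBR3. Capitals mark every match, on either strand, to CAGAC (the SMAD-binding core), GGGCGG (the GC box), CACGTG (an E-box) and TATAAA (the TATA box).
TGFB1: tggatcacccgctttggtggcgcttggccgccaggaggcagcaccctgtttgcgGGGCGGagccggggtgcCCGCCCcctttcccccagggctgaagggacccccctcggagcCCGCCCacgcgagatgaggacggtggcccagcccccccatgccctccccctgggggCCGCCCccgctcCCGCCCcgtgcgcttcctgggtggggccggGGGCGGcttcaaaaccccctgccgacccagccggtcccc
TGFB2: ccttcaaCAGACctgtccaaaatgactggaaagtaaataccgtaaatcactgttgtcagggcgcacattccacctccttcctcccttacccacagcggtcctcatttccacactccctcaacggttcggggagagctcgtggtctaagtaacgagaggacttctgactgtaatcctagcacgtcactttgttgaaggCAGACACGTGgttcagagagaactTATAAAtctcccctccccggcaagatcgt
TGFBR3: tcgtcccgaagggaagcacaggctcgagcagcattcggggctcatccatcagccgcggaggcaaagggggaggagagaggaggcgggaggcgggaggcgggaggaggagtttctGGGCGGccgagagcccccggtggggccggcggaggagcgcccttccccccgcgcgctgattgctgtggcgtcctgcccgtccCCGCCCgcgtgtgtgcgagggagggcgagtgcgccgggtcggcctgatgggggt

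The window of TGFB1 held 6 GC boxes, whose first bases lay 196, 179, 137, 81, 69 and 39 bases before the start, and no match to the other motifs. That of TGFB2 held CAGAC at 243 and 53 bases, CACGTG at 49 bases, sharing 1 base with the second CAGAC, and TATAAA at 29 bases before the start, with no GC box. The window of TGFBR3 held GC boxes at 136 and 54 bases only. Among 35116 RefSeq windows of 250 bases, 38.0% held CAGAC, 42.6% GGGCGG, 6.34% CACGTG and 10.7% TATAAA. All 10 genes had a window in the RefSeq table, 28 in all for their alternative starts. Of these 28 windows, 9 held CAGAC, 14 GGGCGG, 4 CACGTG and 3 TATAAA. These matches describe letters and not bound sites.

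Among the ligands, TGFB1 rose and TGFB2 fell at both times. TGFB1 (chr19:41807492-41859827 on GRCh37, minus strand) was measured at 431 and 481 normalized counts with SB, 1381 and 1775 after 3 days of TGFβ, and 2595 and 2153 after 7 days. No group overlapped another, and the spread within each TGFβ group was wider than within SB. The mean was 3.46-fold higher than SB at 3 days (log2 fold change 1.78, SE 0.14, adjusted p = 1.75e-06) and 5.21-fold higher at 7 days (2.37, SE 0.14, adjusted p = 6.66e-08). The step from 3 to 7 days was smaller (0.59, SE 0.14, adjusted p = 0.00707). It was no longer called without the first 3-day library (0.41, adjusted p = 0.0743) or without the first 7-day library (0.46, adjusted p = 0.0852). The model of TGFB1 shares 215 exonic bases with HNRNPUL1 on the opposite strand, and the library kit does not mark strand. HNRNPUL1, at 7179 and 7180 with SB and 4903 and 5054 at 7 days, moved in the other direction (log2 fold change -0.53).

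TGFB2 (chr1:218518678-218617961, plus strand), the isoform that depends most on the coreceptor TGFBR3 for binding, was at 872 and 834 with SB, 261 and 211 after 3 days, and 98 and 128 after 7 days. All 3 groups stood apart, with each TGFβ library far below both SB libraries. Against SB the TGFB2 difference was -1.86 at 3 days (SE 0.17, adjusted p = 7.43e-06) and -2.92 at 7 days (SE 0.17, adjusted p = 6.89e-08). The 7-day mean was also lower than the 3-day mean (log2 fold change -1.06, SE 0.17, adjusted p = 0.000943). These calls held in all 17 other settings tried, each library left out in turn included. As a ratio of means, SB exceeded TGFβ 3.61-fold at 3 days and 7.55-fold at 7 days.

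TGFB3 (chr14:76424440-76449354, minus strand) was at 54 and 47 normalized counts with SB, the lowest of the ligands per kilobase of exon as well (9.67 ± 0.948, SD, n = 2). It was at 89 and 121 after 3 days and 125 and 105 after 7 days, so both TGFβ groups lay above SB and overlapped each other. The rise over SB was 2.08-fold at 3 days (log2 fold change 1.03, SE 0.23, adjusted p = 0.00507) and 2.28-fold at 7 days (1.17, SE 0.23, adjusted p = 0.000976). Without the second 3-day library the 3-day call was lost (0.81, adjusted p = 0.0595). Between 7 and 3 days the difference was 0.14 with a 95% confidence interval from -0.35 to 0.64.

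To compare levels between ligands, counts were divided by the length of each gene's merged exons, 3264 bases for TGFB1, 6050 for TGFB2 and 5223 for TGFB3. With SB, TGFB1 and TGFB2 were close to equal per kilobase, at 140 ± 10.8 and 141 ± 4.44 normalized counts per kilobase (SD, n = 2). TGFB1 made up 46.1 and 50.1% of the summed level of the 3 ligands in the SB libraries, 87.5 and 90.4% at 3 days, and 95.2 and 94.1% at 7 days. The share of TGFB2 was 50.3 and 46.9% with SB, 8.93 and 5.79% at 3 days, and 1.94 and 3.02% at 7 days. TGFB3 stayed between 2.87 and 3.85% in every library. At 7 days TGFB3 (22.0 ± 2.71 per kilobase) and TGFB2 (18.7 ± 3.51) lay within their spread of each other, but with the canonical transcript as the length TGFB3 (33.5 ± 4.12) stood above TGFB2 (19.3 ± 3.62) without overlap. The sum of the 3 ligands per kilobase was 290 ± 5.44 with SB, 543 ± 83.8 at 3 days and 768 ± 95 at 7 days, and the groups did not overlap. By canonical transcript length, TGFB1 made up 48.5 to 52.6%, 87.6 to 90.0% and 93.7 to 94.6%. These shares were not tested beyond the tests of the single genes.

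**Figure D2:**
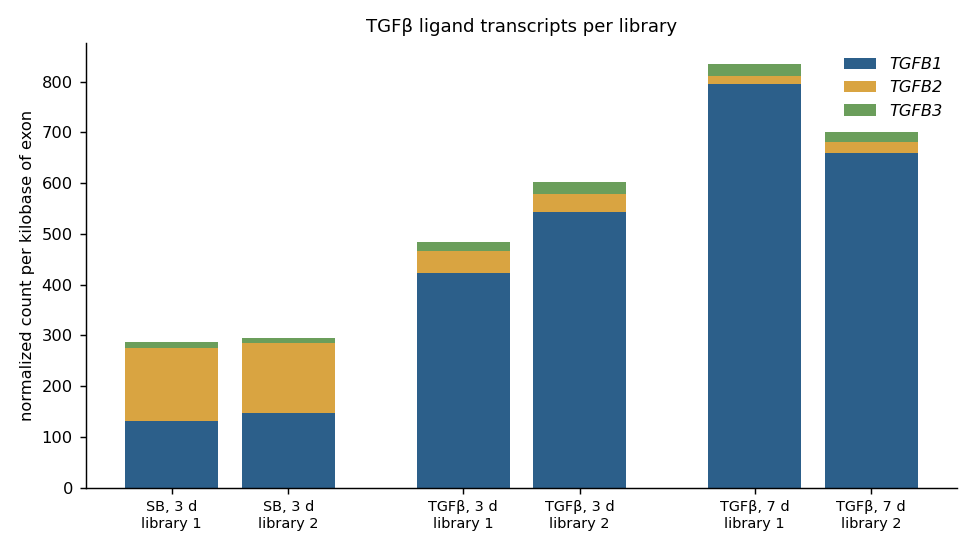
Normalized count per kilobase of merged exon for TGFB1, TGFB2 and TGFB3 (stacked, linear axis from 0) in each of the 6 libraries. TGFB2 makes up about as much of the bar as TGFB1 in both SB libraries and at most 8.93% of it in any TGFβ library.

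Both signaling receptors rose, by different courses. TGFBR1 (chr9:101866320-101916474, plus strand), the type I receptor whose kinase SB blocks, was at 2077 and 1948 normalized counts with SB, 3763 and 3338 at 3 days, and 6537 and 6787 at 7 days. Each group lay wholly above the one before. Relative to SB the mean was 1.76-fold higher at 3 days (log2 fold change 0.82, SE 0.09, adjusted p = 3.68e-05) and 3.31-fold higher at 7 days (1.73, SE 0.09, adjusted p = 3.16e-08). The second step was as large as the first (0.91 between 3 and 7 days, SE 0.09, adjusted p = 4.53e-05). All 3 calls held in each of the 17 other settings. Since SB acts on the protein, the transcript level does not report how far the receptor was blocked.

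TGFBR2 (chr3:30648093-30735634, plus strand), the type II receptor, was at 4551 and 4096 with SB, 8795 and 8648 at 3 days, and 9685 and 10158 at 7 days. Most of its difference was present at 3 days. The rise over SB was 2.02-fold at 3 days (1.01, SE 0.08, adjusted p = 2.92e-06) and 2.29-fold at 7 days (1.20, SE 0.08, adjusted p = 3.13e-07). The 7-day libraries both lay above the 3-day libraries, but the difference of 0.19 did not pass the test (SE 0.08, adjusted p = 0.109). Put as a share of the 7-day log2 fold change, 84.5% was present at 3 days for TGFBR2 and 47.3% for TGFBR1. Accordingly the ratio of TGFBR1 to TGFBR2, set to 1 at the SB mean, was 0.918 and 0.828 at 3 days and 1.45 and 1.43 at 7 days, a description that was not tested.

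TGFBR3 (chr1:92145900-92371892, minus strand) encodes betaglycan, the coreceptor that presents ligand to TGFBR2. Its libraries read 141 and 181 with SB, 156 and 168 at 3 days, and 138 and 180 at 7 days. The 3 groups overlapped fully. The difference from SB was 0.02 at 3 days (95% confidence interval -0.41 to 0.45, adjusted p = 0.953) and -0.02 at 7 days (-0.45 to 0.41, adjusted p = 0.940), intervals that leave room for small changes in either direction. In SB cells the receptors per kilobase of exon stood in the order TGFBR2 (631 ± 47.0), TGFBR1 (252 ± 11.4) and TGFBR3 (18.8 ± 3.30). The order was the same at 7 days, at 1448 ± 48.8, 834 ± 22.1 and 18.5 ± 3.46 (SD, n = 2), and no neighbours in it came within their spread of each other.

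**Figure D3:**
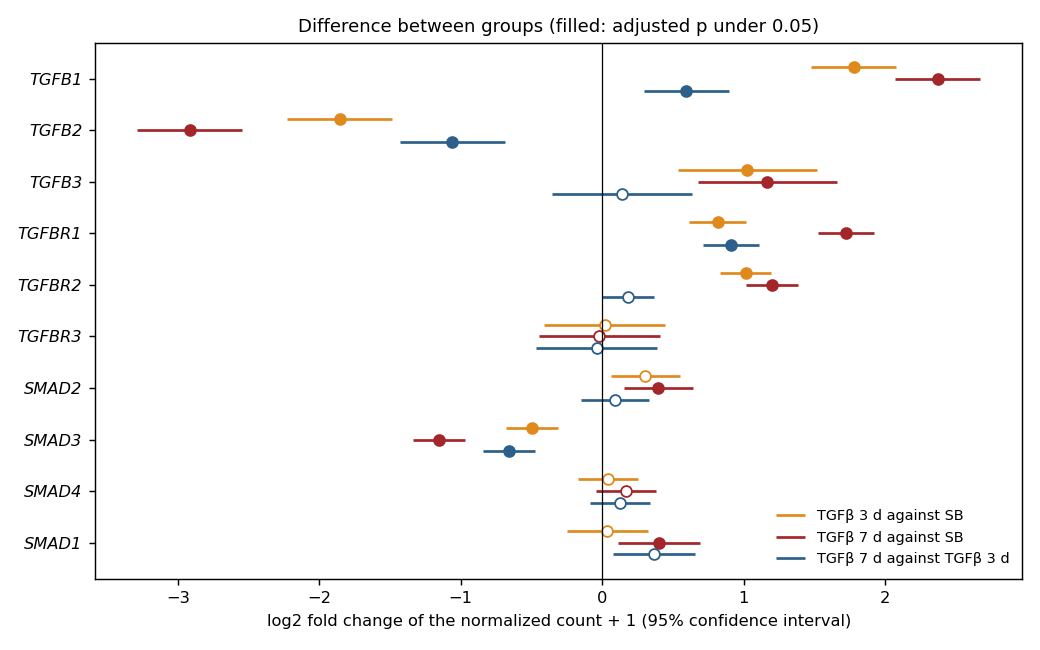
Log2 fold change of the normalized count plus 1 (horizontal axis) for each of the 10 genes in the 3 comparisons, with 95% confidence intervals from limma; filled points had an adjusted p under 0.05. TGFB2 lies furthest to the left and TGFB1 furthest to the right in both comparisons with SB, and all 3 intervals of TGFBR3 and SMAD4 span 0.

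Of the SMADs phosphorylated by TGFBR1, SMAD3 fell and SMAD2 did not. SMAD3 (chr15:67356101-67487511, plus strand), which binds DNA directly, was at 11488 and 10618 normalized counts with SB, 8171 and 7518 at 3 days, and 5101 and 4843 at 7 days. The groups descended without overlap. Its log2 fold change from SB was -0.49 at 3 days (SE 0.08, adjusted p = 0.000963) and -1.15 at 7 days (SE 0.08, adjusted p = 5.03e-07), and the 7-day level was below the 3-day level (-0.66, SE 0.08, adjusted p = 0.000237). At 7 days the SMAD3 mean was 0.450 of that with SB. These calls too held in all 17 settings.

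SMAD2 (chr18:45335328-45457517, minus strand), whose main form does not bind DNA itself, was at 1600 and 1352 with SB, 1900 and 1738 at 3 days, and 1826 and 2052 at 7 days. Both TGFβ groups lay above SB and overlapped each other. The difference from SB was 0.30 at 3 days (SE 0.11, adjusted p = 0.0602) and 0.40 at 7 days (SE 0.11, adjusted p = 0.0101). At 3 days it was called without the first SB library (0.43, adjusted p = 0.0241) and fell to 0.18 without the second. The 7-day call was weak: it was lost without the second SB library (0.27, adjusted p = 0.0701), without the second 7-day library (0.31, adjusted p = 0.112), and after adjusting each library for GC and transcript length (-0.08, adjusted p = 0.648). The transcript assigned to SMAD2 in that correction is 34626 bases long, a length exceeded by 3 of 13878 genes, so the correction rests on few genes there. The ratio of SMAD3 to SMAD2, set to 1 at the SB mean, was 0.572 and 0.575 at 3 days and 0.372 and 0.314 at 7 days, and was not tested.

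SMAD4 (chr18:48554898-48611415, plus strand), the partner shared by both branches, was at 1421 and 1391 with SB, 1507 and 1392 at 3 days, and 1527 and 1635 at 7 days. The SB and 3-day groups overlapped, and the 7-day libraries lay slightly above both. The difference from SB was 0.04 at 3 days (95% confidence interval -0.17 to 0.26, adjusted p = 0.779) and 0.17 at 7 days (-0.04 to 0.38, adjusted p = 0.162). Its sign at 3 days turned with equal library totals (-0.01), so no direction is given.

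SMAD1 (chr4:146402346-146480328, plus strand), of the BMP branch, was at 670 and 864 with SB, 817 and 746 at 3 days, and 977 and 1038 at 7 days. The first 2 groups overlapped and the 7-day libraries lay above both. Against SB the difference was 0.04 at 3 days (SE 0.13, adjusted p = 0.865) and 0.40 at 7 days (SE 0.13, adjusted p = 0.0216). The 7-day call was lost without the first SB library (0.22, adjusted p = 0.161) and without either 7-day library (adjusted p = 0.0590 and 0.127). Between 7 and 3 days the difference was 0.37 (SE 0.13, adjusted p = 0.0512), and it was called in 5 of the 17 other settings, among them without the first or second SB library (adjusted p = 0.0176 and 0.0181).

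Per kilobase of exon, SMAD3 stood highest of the 4 SMADs in each group, at 1104 ± 61.5 with SB and 497 ± 18.2 at 7 days (SD, n = 2). SMAD1 followed at 108 ± 19.3 and 142 ± 6.08. SMAD4 was at 71.7 ± 1.08 and 80.6 ± 3.90, and SMAD2 at 40.5 ± 4.81 and 53.2 ± 4.39. The gap from SMAD3 to SMAD1 was thus far wider than the spread, and the gaps between the other neighbours were also wider. The merged exons span 36426 bases for SMAD2, 19606 for SMAD4, 10011 for SMAD3 and 7094 for SMAD1. The per-kilobase level of each is understated if the cells use a shorter form. By canonical transcript length the order was the same, but the levels differed. The means with SB were then 1710 for SMAD3, 255 for SMAD1, 160 for SMAD4 and 42.6 for SMAD2. At 7 days they were 769, 336, 180 and 56.0.

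Genes around the core were counted in 5 lists by role, 52 genes in all, of which 50 were tested. Against SB, 25 were higher and 5 lower at 3 days, and 32 were higher and 7 lower at 7 days. Over all genes tested, 14.9% were higher and 14.0% lower at 3 days and 27.7% and 26.9% at 7 days, and each list's count below stands against these shares. The median log2 fold change over the 50 was 0.41 at 3 days and 0.72 at 7 days. Of the called genes, 24 of 30 at 3 days and 33 of 39 at 7 days kept their call in every setting tried. TGFBI and SMAD7 on these lists are textbook TGFβ targets, so the lists are not an independent set. The lists were also chosen with earlier results of these data known.

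Most genes on the list for the latent complex and ligand release were higher with TGFβ. Of 10 tested, 6 were higher and 2 lower at 3 days, and 8 were higher and 1 lower at 7 days, with medians of 0.55 and 1.42. LTBP2, a matrix protein that shares the LTBP family name, was at 242 and 261 normalized counts with SB, 7042 and 8575 at 3 days, and 16149 and 14884 at 7 days. Whether it held any TGFβ here was not measured. ITGB6, the β6 chain of an integrin that releases TGFβ1 and TGFβ3, was at 13 and 22 with SB, 693 and 607 at 3 days, and 1165 and 1374 at 7 days. The log2 fold changes from SB were 4.94 and then 5.94 for LTBP2, and 5.18 and then 6.14 for ITGB6. Neither pair of TGFβ libraries came near the SB values. THBS1, thrombospondin 1, an activator of latent TGFβ, rose by 3.53 and 3.37. FURIN, the protease that cuts the TGFβ propeptide, rose by 1.42 and 1.83, and ITGAV, the αv partner of the β6 chain, by 0.62 and 0.75. LTBP1, the binding protein best known for holding latent TGFβ in the matrix, rose by 0.36 and 1.01, and the 3-day call was lost without the second SB library (0.19, adjusted p = 0.125) or the first 3-day library (0.33, adjusted p = 0.114).

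ITGB8, the β8 chain of another integrin that activates TGFβ, was at 481 and 675 with SB, 110 and 95 at 3 days, and 674 and 676 at 7 days. It was thus lower at 3 days (-2.47, adjusted p = 7.15e-07) and near the SB level at 7 days (0.24, adjusted p = 0.244). LTBP3, also of the latent TGFβ-binding family, was at 1035 and 2126 with SB, 851 and 1133 at 3 days, and 7557 and 6058 at 7 days, a rise at the later time only by these tests (2.19 at 7 days, adjusted p = 2.37e-05, against -0.59 at 3 days, adjusted p = 0.104), and the difference between the times was itself called (2.78, adjusted p = 2.74e-05). LTBP4 was higher at 7 days by 0.55, a call lost without the first SB library (0.42, adjusted p = 0.130) or the first 7-day library (0.31, adjusted p = 0.212). NRROS, which anchors latent TGFβ on cells of the myeloid line, fell by 1.22 and 1.32, and LRRC32, which does so on regulatory T cells, was at 1 or 0 in every library and was not tested.

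Of the 10 other type I and II receptors of the family and endoglin, 4 were higher and 1 lower at 3 days, and 6 were higher and 1 lower at 7 days. BMPR1B, a BMP type I receptor, was at 35 and 50 with SB, 166 and 153 at 3 days, and 308 and 354 at 7 days. The type II receptor BMPR2 was at 2161 and 2261 with SB, 4062 and 3885 at 3 days, and 5765 and 6246 at 7 days. Both climbed at each step, by 1.90 and 2.95 for BMPR1B and by 0.85 and 1.44 for BMPR2 relative to SB. ENG, the coreceptor endoglin, rose by 0.75 and 1.60, and ACVR1 (ALK2) by 0.69 and 1.02. At 7 days BMPR1A and ACVR2A were higher than SB (0.57 and 0.51), and their 3-day differences (0.18 and 0.14) were not called. Between 7 and 3 days BMPR1A was called (0.38, adjusted p = 0.0265) and ACVR2A was not (0.38, adjusted p = 0.0563). The call of ACVR2A against SB was lost without the second 7-day library (adjusted p = 0.0566). ACVR1C (ALK7) was lower by 0.79 and 0.77 at levels of 30 to 62, and its call was lost at 3 days without any 1 of the 6 libraries (adjusted p between 0.0524 and 0.241) and at 7 days without either SB library or the first 7-day library (0.0673 to 0.233). ACVR1B (0.11 at 7 days), ACVR2B (-0.13) and ACVRL1 (0.66 at 14 to 38 counts) did not pass.

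The inhibitory SMADs rose and the other BMP branch SMADs did not pass the test against SB. SMAD7, which recruits ubiquitin ligases to TGFBR1, was at 112 and 79 with SB, 916 and 799 at 3 days, and 854 and 747 at 7 days, with log2 fold changes of 3.17 (adjusted p = 8.54e-08) and 3.07 (adjusted p = 4.76e-08). SMAD6, the inhibitor best known in the BMP branch, was at 2 and 9 with SB, 39 and 45 at 3 days, and 194 and 185 at 7 days. For SMAD7 no difference between 7 and 3 days was detected (-0.10, adjusted p = 0.690), while SMAD6 was higher at 7 than at 3 days (2.15, adjusted p = 0.00397). Its log2 fold changes from SB, 2.97 and 5.12, rest on few counts in the SB libraries. SMAD5 was at 4629 and 4728 with SB and 4784 and 5020 at 7 days (0.07, adjusted p = 0.516), and SMAD9 was at 88 or less in every library (-0.27 at 7 days, adjusted p = 0.376).

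Among regulators of receptors and SMADs, 7 of 17 tested were higher and 1 lower at 3 days, and 9 were higher and 4 lower at 7 days. PMEPA1, which keeps SMAD2 and SMAD3 from the receptor, was at 320 and 193 with SB, 9312 and 9610 at 3 days, and 21675 and 21001 at 7 days. SKIL, the SMAD corepressor SnoN, was at 1452 and 1608 with SB, 8713 and 7657 at 3 days, and 15652 and 16727 at 7 days. These 2 feedback genes had log2 fold changes of 5.24 and 6.42 (PMEPA1) and of 2.42 and 3.40 (SKIL). Smaller rises at both times were seen for the ubiquitin ligase SMURF1 (1.02 and 1.16), FKBP1A, the FKBP12 protein that sits on TGFBR1 (0.82 and 0.95), the corepressor TGIF1 (0.50 and 0.85), the deubiquitinase USP9X, which acts on SMAD4 (0.39 and 0.69), and the phosphatase PPM1A (0.35 and 0.68). BAMBI, a decoy receptor (0.52), and ZFYVE9, which brings SMAD2 and SMAD3 to the receptor (0.28), were higher than SB at 7 days, with 3-day differences of -0.17 and 0.14 that were not called. Between 7 and 3 days BAMBI differed (0.69, adjusted p = 0.0125) and ZFYVE9 did not pass (0.14, adjusted p = 0.350). Lower at 7 days were the ligase NEDD4L (-0.74), the corepressor SKI (-0.44), the deubiquitinase USP15 (-0.40) and TGIF2 (-0.40, and -0.58 at 3 days). The 7-day call of BAMBI was lost without the first SB library or either 7-day library (adjusted p between 0.0744 and 0.188). That of TGIF2 was lost without the second SB or the second 7-day library (0.184 and 0.222), and that of ZFYVE9 without any 1 library but the second SB library (0.0619 to 0.247). At 3 days the calls of USP9X (0.0508), PPM1A (0.145) and TGIF2 (0.0516) were lost without the first 3-day library, and those of PPM1A (0.0712) and TGIF2 (0.0589) also without the first and the second SB library, respectively. FOXH1, a DNA-binding partner of SMAD2, was at 4 or less and was not tested.

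Of 9 well-known targets, 6 were higher and 1 lower at 3 days, and 7 were higher and 1 lower at 7 days, with medians of 1.42 and 2.05. TGFBI, a secreted matrix protein, was at 23141 and 21758 with SB, 142753 and 144378 at 3 days, and 303620 and 307204 at 7 days. All its TGFβ libraries stood far above SB, with log2 fold changes of 2.68 and 3.77. JUNB (2.02 and 2.63), the cell cycle inhibitor CDKN2B (1.42 and 2.05) and ID2 (1.52 and 2.54) rose at both times, and COL1A1 (1.22) and ID1 (1.46) were higher than SB at 7 days. Their 3-day differences (0.44 and 0.11) were not called, and both were higher at 7 than at 3 days (0.78, adjusted p = 0.00691, and 1.35, adjusted p = 4.34e-05). The ID genes encode inhibitors of helix-loop-helix factors and are known mainly as BMP targets. ID3 was lower at 3 days (-1.43) and not called at 7 days (-0.40, adjusted p = 0.0772).

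CTGF, a matricellular gene, was called in opposite directions at the 2 times. It was at 3032 and 1724 with SB, 4608 and 3657 at 3 days, and 881 and 751 at 7 days. The 7-day libraries lay below both SB libraries (-1.49, adjusted p = 9.29e-05) and the 3-day libraries above them (0.84, adjusted p = 0.00980). The 3-day call was lost without the second SB library (0.44, adjusted p = 0.0649) or the first 3-day library (0.68, adjusted p = 0.0581).

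**Figure D4:**
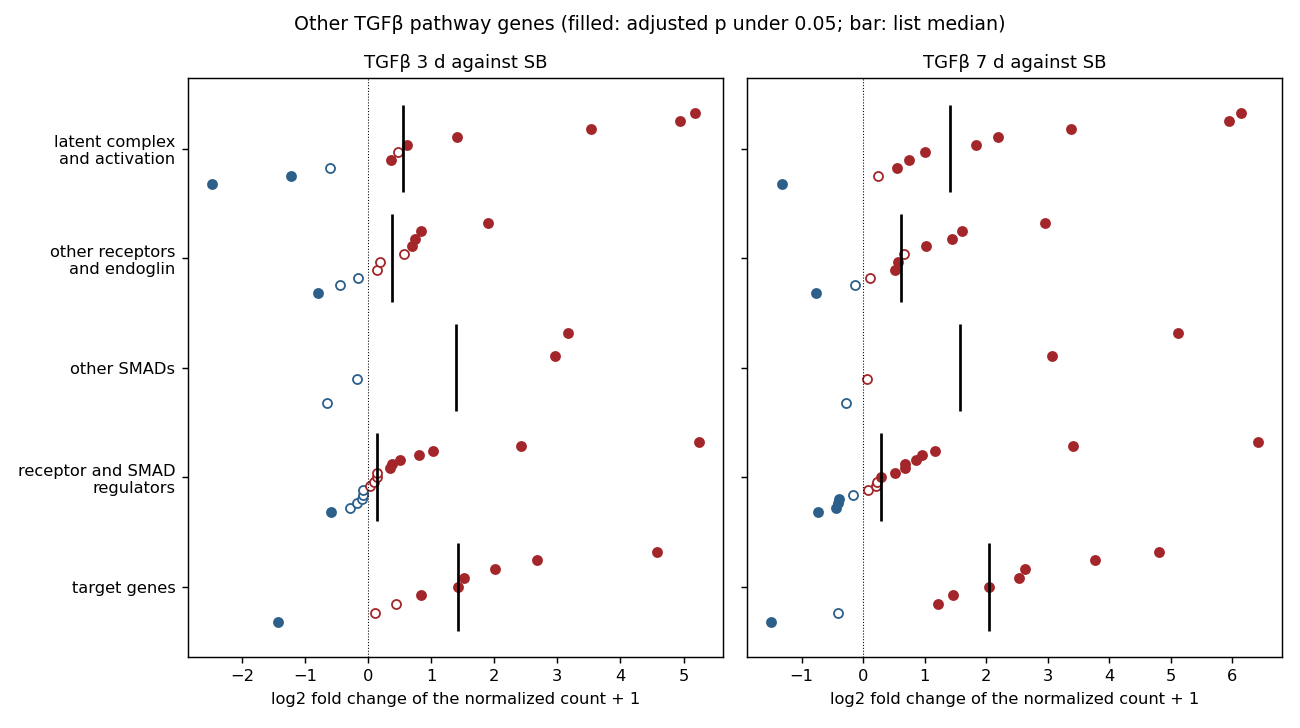
Log2 fold change against SB (horizontal axis) of the tested genes of the 5 pathway lists at 3 days (left) and 7 days (right) of TGFβ; each point is a gene, red above 0 and blue below, filled where the adjusted p was under 0.05, and the bar is the list's median. LTBP2, ITGB6 and PMEPA1 lie beyond 4.9 in both panels, and the medians of all 5 lists are above 0.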

How the data were processed

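RNA-seq libraries of H2087-LCC cells (SB for 3 days, TGFβ for 3 days, TGFβ for 7 days, 2 each) were grouped by the labels. The authors mapped reads to hg19 with STAR, counted them on genes with HTSeq 0.6.1p1 and scaled the counts by library size. The authors' processing notes also name FastQC 0.11.5 and DESeq2 3.4. The deposited values, recorded under the unit score, are these library-normalized counts rounded to whole numbers, so no count model was fitted. The annotation release used for counting is not given in the sources used here.

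Values were taken as log2(value + 1), and genes whose mean reached 10 entered 1 fit with limma 3.58.1 (R 4.3.3, empirical Bayes with a trend, 3 residual degrees of freedom, 2-sided), with Benjamini-Hochberg adjustment over all genes tested in each of 3 comparisons. The steps were tested on simulated data. The members and the pathway and marker lists were chosen with earlier results of these data known. Named were all members, list genes called at 7 days against SB or in opposite directions at the 2 times, list genes with a member's role, and the 3 genes of mean 100 or more nearest to each of 3 members. The values of 1 target gene are not reported here. Gene models and exon lengths came from GENCODE (lifted to GRCh37) and upstream sequences from RefSeq (GRCh38.p14). Some models share exonic bases with noncoding genes that have no row of their own (TGFB2, TGFB3, SMAD1 and SMAD3), and SMAD4 shares 967 with a protein-coding model on its own strand that also has none. Per the study, HTSeq was run with its default settings on uniquely mapped reads. Since the annotation release is not given, which of these shared bases affected the counts is not known. Alternatives were a pseudocount of 0.5 or 5, no filter or a minimum mean of 50, size factors by median of ratios, equal totals, no trend, only the 4 libraries compared, a replicate block and each library left out. A crossed replicate block, a loess adjustment for GC and transcript length (span 0.5, 13878 genes) and canonical transcript lengths were added after seeing the data. Protein sequences were not used here. Depth estimates cover counting error only. Plots were made in Python 3.11.15 (matplotlib 3.10.9).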

Additional observations from a re-analysis of the deposited data

Results flagged for a closer look

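For 4 of the 10 genes, the difference from SB was not the same at 3 and 7 days, by limma's test of 7 against 3 days of TGFβ, which 33.2% of all genes tested passed (17.0% higher and 16.2% lower at 7 days). On the log2 scale TGFB1 was higher at 7 days by 0.59 and TGFBR1 by 0.91, while TGFB2 (-1.06) and SMAD3 (-0.66) were lower. The call for TGFB1 was lost without the first 3-day library (0.41) or the first 7-day library (0.46), and the other 3 calls held in every setting tried.

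The same test was passed by 31 of the 50 list genes tested, 26 higher and 5 lower at 7 days. On the list for the latent complex and ligand release, LTBP3 (2.78) and ITGB8 (2.71) differed most. LTBP2 (0.996), ITGB6 (0.96), LTBP1 (0.64) and FURIN (0.41) followed. Receptors that were higher at 7 days were BMPR1B (1.05), ENG (0.85), BMPR2 (0.59), BMPR1A (0.38) and ACVR1 (0.33). Of the other SMADs, SMAD6 was higher by 2.15 and SMAD5 by 0.25. Among the regulators PMEPA1 (1.17), SKIL (0.99), BAMBI (0.69), TGIF1 (0.35), PPM1A (0.33) and USP9X (0.30) were higher, and NEDD4L (-0.46), SKI (-0.37), USP15 (-0.30) and STRAP (-0.26) were lower. Of the targets, ID1 (1.35), TGFBI (1.09), ID3 (1.03), ID2 (1.01), COL1A1 (0.78), CDKN2B (0.63) and JUNB (0.61) were higher and CTGF (-2.33) was lower. In 17 of these 31 genes the call was lost in at least 1 setting, and 14 kept it in every setting. JUNB fell to 0.37 (adjusted p = 0.286) without the first 3-day library and to 0.27 (0.414) without the first 7-day library, and its call was also lost without either SB library (0.0532 and 0.0527), with no filter, with equal totals and without the trend. FURIN fell to 0.21 (0.284) and 0.24 (0.286) without those same first libraries, and COL1A1 to 0.61 in both cases (0.0590 and 0.0837). ITGB6 (0.84, adjusted p = 0.0668) lost its call without the second and ID2 (0.94, 0.0597) without the first 7-day library, and NEDD4L without the first 3-day (0.0649) or second 7-day library (0.0551). The calls of ACVR1, BMPR1A, SMAD5, PPM1A and STRAP were lost without any 1 of the 4 TGFβ libraries (adjusted p between 0.0509 and 0.244). Those of BAMBI and USP15 were lost without the first 3-day library or either 7-day library (0.0540 to 0.198), and those of SKI, USP9X and TGIF1 without the second 3-day library or either 7-day library (0.0801 to 0.128). SMAD6 lost its call with no filter only.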

How the results depend on the processing

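The number of the 10 genes called stayed within 1.5 times its value under every alternative. With the replicate number as a replicate block, 6, 8 and 4 genes were called at 3 days against SB, at 7 days against SB and at 7 against 3 days, as without it, and no member's call changed. The deviations of same-numbered libraries from their group means correlated at r of 0.21 (SB and 3 days), -0.13 (SB and 7 days) and -0.65 (3 and 7 days) over 11389 genes. The numbers were therefore not taken to pair the samples, though libraries with opposite numbers deviated together between 3 and 7 days. With the crossed replicate block, chosen after seeing the data, 7, 8 and 5 were called.

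Signs turned only for differences that were not called, apart from SMAD2 at 7 days, and the cause was not tested. With equal library totals the 3-day difference from SB was -0.0364 for TGFBR3, -0.0128 for SMAD4 and -0.0186 for SMAD1. With the GC and length adjustment, added after seeing the data, it was -0.0433 for TGFBR3 and -0.0716 for SMAD4. That adjustment gave -0.0818 for SMAD2 and -0.0827 for SMAD4 at 7 days against SB, and -0.14 for SMAD2 and -0.0111 for SMAD4 at 7 against 3 days. Leaving out 1 library at a time gave ranges of -0.16 to 0.20 (3 days), -0.21 to 0.17 (7 days) and -0.23 to 0.15 (7 against 3 days) for TGFBR3. The ranges at 3 days were -0.0143 to 0.10 for SMAD4 and -0.15 to 0.22 for SMAD1, and TGFB3 ranged from -0.0781 to 0.36 between 7 and 3 days.

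Over all genes, the 4170 called at 3 days against SB became 2608 without the first 3-day library. The 4775 called between 7 and 3 days became 3042 with no filter, 3122 without the trend, 2800 without the first 3-day library, and 2554 and 2294 without the first and second 7-day library. The call for TGFB1 between 7 and 3 days (adjusted p = 0.0626 and 0.0566) and that for SMAD1 at 7 days against SB (0.0731 and 0.0675) were also lost with no filter and without the trend. So were those of LTBP4, BAMBI and TGIF2 at 7 days against SB, and of LTBP1 and CTGF at 3 days. The 7-day call of ZFYVE9 against SB was lost with median-of-ratios scaling, equal totals, no trend, the replicate block and only the 4 libraries compared. With the GC and length adjustment its difference was 0.11 (adjusted p = 0.195). With 2 libraries a group, small differences such as those of SMAD1, SMAD2 and SMAD4 are at the limit of what these data can show.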

Other observations

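The genes nearest to each of the 3 members with the widest range of group means were found by the distance between log2 values over the 6 libraries, each gene centred on its own mean, among 11388 other genes with a mean of at least 100. Nearest to TGFB2 were RASL11A (distance 0.41), TXNDC17 (0.46) and RASGRF1 (0.52). RASL11A was at 662 and 665 normalized counts with SB, 179 and 191 at 3 days, and 96 and 100 at 7 days. PHLDB1 (0.13), SEMA3F (0.18) and FAM214B (0.19) were nearest to TGFB1. PHLDB1 was at 1035 and 1176 with SB, 3411 and 3934 at 3 days, and 6000 and 5105 at 7 days. Like TGFB1 it read lower in the first than in the second 3-day library and higher in the first than in the second 7-day library. Opposite deviations at 3 and 7 days were common over 11389 genes (r of -0.65 between same-numbered libraries). This likeness is therefore not particular to PHLDB1. HMGA2 (0.15), TBC1D8B (0.17) and PLEKHG4B (0.25) were nearest to TGFBR1. HMGA2, which encodes a chromatin protein, was at 12971 and 12780 with SB, 22424 and 22138 at 3 days, and 38990 and 43996 at 7 days. With 6 libraries, many genes share such a course, and the distances are a description.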
